A study of Mus musculus with 8 samples.

Results

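Gata1, Gata2, Gata3 and Zfpm1, 4 of the 53715 genes counted, were followed through stem cell RNA of mice labelled Gata2 heterozygote and of wild-type mice. They were chosen by name, as the GATA factors detected in blood stem cells and the cofactor FOG1, which Zfpm1 encodes, and each symbol matched 1 gene identifier. All 4 passed the filter on low counts. The cells were bone marrow haematopoietic stem cells, sorted as lineage-negative, Sca-1-positive and Kit-positive cells with CD150 and without CD48. The 4 heterozygote libraries came from mice labelled Gata2; Mx1-Cre Heterozygote, and the other 4 came from mice labelled Wild Type. All mice were 8 to 12 weeks old and had received 6 doses of pIpC, a double-stranded RNA mimic that induces interferon. Mx1-Cre is a recombinase driven by the interferon-inducible Mx1 promoter, which is active in many cell types besides blood stem cells. Carriage of Mx1-Cre by the wild-type mice and the kind of Gata2 allele are not given in the sources used here, so an effect of the transgene and one of the Gata2 allele cannot be told apart. With 4 mice per genotype and 1 library for each, the study asked how the transcriptome of stem cells differs when Gata2 is heterozygous.

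GATA factors are zinc-finger proteins that bind the DNA sequence GATA. GATA2 maintains stem and early progenitor cells, GATA1 drives erythroid, megakaryocyte, mast cell and eosinophil maturation, and GATA3 directs T cell and innate lymphoid development and is also expressed in long-term stem cells. During erythroid maturation GATA1 replaces GATA2 at shared sites, including sites at the Gata2 locus itself, an exchange called the GATA switch. FOG1 binds no GATA site itself but attaches to the N-terminal zinc finger of GATA factors and brings the NuRD and CtBP corepressors.

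The promoters are shown because Gata3 and Zfpm1 varied together across libraries, as described after the levels. That relation passed only with each library's trend on GC content and length left in, and a link to the promoter sequence was not tested. Each line gives the 250 bases before a RefSeq transcription start in GRCm38.p6, 5′ to 3′ on the gene's strand, for all 4 genes. Capitals mark matches to the core GATA or to the CACC box, which is spelled CCACCC. Both strands were searched, so reverse complements are in capitals as well.
Gata1, chrX:7967911-7968160, minus strand: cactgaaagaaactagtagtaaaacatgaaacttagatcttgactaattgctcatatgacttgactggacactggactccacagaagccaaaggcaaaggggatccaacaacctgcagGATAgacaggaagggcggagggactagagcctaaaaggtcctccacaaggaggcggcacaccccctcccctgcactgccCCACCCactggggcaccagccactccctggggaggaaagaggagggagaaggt
Gata3, chr2:9878601-9878850, minus strand: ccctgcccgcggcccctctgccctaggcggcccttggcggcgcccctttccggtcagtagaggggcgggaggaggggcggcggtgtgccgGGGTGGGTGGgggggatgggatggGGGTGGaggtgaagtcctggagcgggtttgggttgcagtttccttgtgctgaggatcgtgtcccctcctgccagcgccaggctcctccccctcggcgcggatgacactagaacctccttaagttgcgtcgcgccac
Zfpm1, chr8:122281891-122282140, plus strand: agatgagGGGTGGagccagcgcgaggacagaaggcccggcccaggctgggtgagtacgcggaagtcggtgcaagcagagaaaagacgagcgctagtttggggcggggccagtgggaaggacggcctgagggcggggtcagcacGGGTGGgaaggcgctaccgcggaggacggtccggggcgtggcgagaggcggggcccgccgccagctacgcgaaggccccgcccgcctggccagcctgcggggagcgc
Gata2, first start, chr6:88193641-88193890, plus strand: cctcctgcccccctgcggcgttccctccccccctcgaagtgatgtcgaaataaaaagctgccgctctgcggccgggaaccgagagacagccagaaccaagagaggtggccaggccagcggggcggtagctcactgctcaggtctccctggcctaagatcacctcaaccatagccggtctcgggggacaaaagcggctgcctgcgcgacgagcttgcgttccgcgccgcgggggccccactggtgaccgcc
Gata2, second start, chr6:88198414-88198663, plus strand: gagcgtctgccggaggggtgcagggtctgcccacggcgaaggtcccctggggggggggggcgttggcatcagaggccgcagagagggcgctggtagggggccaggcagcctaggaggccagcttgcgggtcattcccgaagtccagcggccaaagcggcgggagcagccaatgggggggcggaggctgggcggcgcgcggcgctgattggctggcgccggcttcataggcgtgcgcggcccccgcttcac
The core GATA occurred only once in these 5 windows, in Gata1, 132 bases upstream of the start. Among all 32851 such windows 53.6% held it. The CACC box occurred once in the Gata1 window, 3 times in Gata3 with 2 of these overlapping, 2 times in Zfpm1 and in neither Gata2 window, against 28.1% of all windows with at least 1. The windows of Gata2, Gata3 and Zfpm1 had 67.2% to 74.0% G and C, and that of Gata1 had 54.0%. The median of all windows was 52.4%, and the shares over all windows were not matched for GC content. These letters describe the windows and show neither binding nor its absence.

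The libraries held 16750778 to 20042384 fragments in the heterozygote label and 19037864 to 22861884 in wild type. Wild-type replicate 3 stood apart from wild-type replicates 1 and 2, with a chi-square per degree of freedom of 100.4 and 104.3 against 38.1 to 67.7 for the other pairs within a genotype. A library's deviation across genes correlated with GC content by -0.0988 to -0.0341 in the heterozygote label, and by 0.180, 0.232, -0.162 and 0.0403 in wild-type replicates 1 to 4. Xist and Y-linked counts marked replicates 1 and 4 of each genotype as female and replicates 2 and 3 as male. All 10 stem cell markers listed passed the filter. Of the genes for the sorting antigens, Sca-1 (Ly6a) averaged 139 ± 13.2 CPM under the heterozygote label and 96.5 ± 17.6 CPM in wild type, where CPM is the count scaled to library size with TMM factors, and CD150 (Slamf1) 24.0 ± 3.68 and 34.0 ± 10.4 CPM in the same order. Cd48 RNA was present at 24.4 ± 6.41 and 23.4 ± 2.59 CPM although the cells were sorted without its protein (SD, n = 4 each). Over all genes, edgeR called 0 of 13992 at an adjusted p under 0.05 (0.0%), 792 (5.66%) had an unadjusted p under 0.05, DESeq2 called 29 (0.207%) and limma-voom 0.

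Gata2 itself was not lower under the heterozygote label. The gene (ENSMUSG00000015053.14, chr6:88193891-88207032, plus strand, GRCm38) has 7 exonic blocks with 5398 bases. Its level in CPM was 35.5, 61.9, 36.7 and 45.1 in heterozygote-labelled replicates 1 to 4, against 30.1, 45.3, 29.1 and 38.5 in wild-type replicates 1 to 4. Heterozygote-labelled replicate 2 lay above all wild-type libraries, the other libraries overlapped, and all 4 heterozygote-labelled libraries exceeded the wild-type median. The means were 44.8 ± 12.2 and 35.8 ± 7.65 CPM in the heterozygote label and wild type (SD, n = 4 each). The log2 fold change was 0.33 (SE 0.23, edgeR adjusted p = 0.858), and without heterozygote-labelled replicate 2 it was 0.13. The counts sum all exons, and single exons were not analysed here. Every direction below follows labels that the Gata2 level did not bear out. Gata2 is GC-rich (58.2% in its longest transcript, above 93.0% of genes tested). With each library's trend on GC content and length removed, the log2 difference was 0.55 (SE 0.23, edgeR unadjusted p = 0.0345, adjusted p = 0.887).

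Gata1 was the gene of the 4 with the largest estimated difference, and it lay lower under the heterozygote label. GATA1 is the factor that completes the red cell and platelet programmes. The gene (ENSMUSG00000031162.14, chrX:7959260-7978071, minus strand) has 10 exonic blocks with 2438 bases. It measured 19.1, 15.6, 7.47 and 35.6 CPM in heterozygote-labelled replicates 1 to 4, against 40.4, 40.3, 21.2 and 41.9 CPM in wild-type replicates 1 to 4. All 4 heterozygote-labelled libraries lay below the wild-type median and 3 lay below the lowest wild-type library, while heterozygote-labelled replicate 4 fell inside the wild-type range. The log2 fold change was -0.89 (SE 0.43), a fold of 0.541 with a 95% interval of 0.279 to 1.05, and it did not pass (edgeR unadjusted p = 0.0652, adjusted p = 0.850). Permuting the labels of log2 CPM exactly, on both sides, gave p = 0.0571, and the 70 assignments allow no p below 0.0286. Without heterozygote-labelled replicate 4 the log2 fold change was -1.35 (edgeR adjusted p = 0.754). In a bulk sample fewer cells with the transcript and less of it per cell cannot be told apart.

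Gata1 is X-linked, and within each genotype both male libraries lay below both female ones. Under the heterozygote label the males had 7.47 and 15.6 CPM and the females 19.1 and 35.6 CPM. In wild type the males had 21.2 and 40.3 CPM and the females 40.4 and 41.9 CPM, so male replicate 2 was close to the females. With 2 libraries per sex in a genotype this order was not tested. With a term for sex the genotype difference was -1.00 (SE 0.36, edgeR adjusted p = 0.806).

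Zfpm1, the FOG1 gene, was by far the scarcest of the 4. The gene (ENSMUSG00000049577.15, chr8:122282141-122337251, plus strand) has 11 exonic blocks with 3503 bases and collected 23 to 191 fragments per library. It measured 1.80, 2.75, 1.25 and 3.94 CPM in heterozygote-labelled replicates 1 to 4, against 7.90, 3.88, 1.87 and 2.77 CPM in wild-type replicates 1 to 4. Wild-type replicate 1 was apart from the rest, and the other libraries of both genotypes overlapped. The log2 fold change of -0.75 (SE 0.59, edgeR adjusted p = 0.866) was -0.21 without wild-type replicate 1. Its transcript had 66.8% G and C, above 99.7% of genes tested. With the trend on GC content and length removed the difference was -0.33 (SE 0.52), and wild-type replicate 1 was still the highest library. The 95% interval of the Zfpm1 fold ran from 0.238 to 1.48, which holds both no change and a fold of 0.541 such as that of Gata1.

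Gata3 had the smallest unadjusted p of the 4 genes. The gene (ENSMUSG00000015619.10, chr2:9857078-9890034, minus strand) has 10 exonic blocks with 3978 bases. It measured 28.5, 29.8, 22.7 and 30.9 CPM in heterozygote-labelled replicates 1 to 4, against 70.1, 60.3, 24.7 and 33.2 CPM in wild-type replicates 1 to 4. The heterozygote-labelled libraries were tightly grouped (coefficient of variation 12.9%), while wild-type replicates 1 and 2 were high and replicates 3 and 4 were near the heterozygote-labelled level (45.8% in wild type). The log2 fold change was -0.75 (SE 0.32, edgeR unadjusted p = 0.0393, adjusted p = 0.850), and the exact permutation test of log2 CPM gave p = 0.200. It was -0.49 without wild-type replicate 1 and -0.96 without wild-type replicate 3 (edgeR adjusted p = 0.204). In this edgeR fit 1 of the 4 genes (Gata3) was lower at an unadjusted p under 0.05, beside 3.29% of all genes tested. By unadjusted p, Gata1 was also under 0.05 in DESeq2 (0.0330) and limma-voom (0.0234). So it was in edgeR fits with a sex term (0.0232), a replicate block (0.0074) or a filter at 5 CPM (0.0457). These 5 fits put 1035, 1461, 847 and 946 of 13992 genes and 716 of 9442 under 0.05, in the same order. In other edgeR fits Gata1 was above 0.05, with RLE scaling (0.0671), library size only (0.0574), no filter (0.0559) and the GC and length trend removed (0.0941). With that trend removed and the replicate block added as well it was at 0.0140, in a fit that put 891 of 13992 genes under 0.05. With single libraries left out its edgeR unadjusted p ran from 0.0070 to 0.140. The edgeR unadjusted p of Gata3 was 0.0510 with the block alone and 0.0582 with the block and that trend removed.

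**Figure D1:**
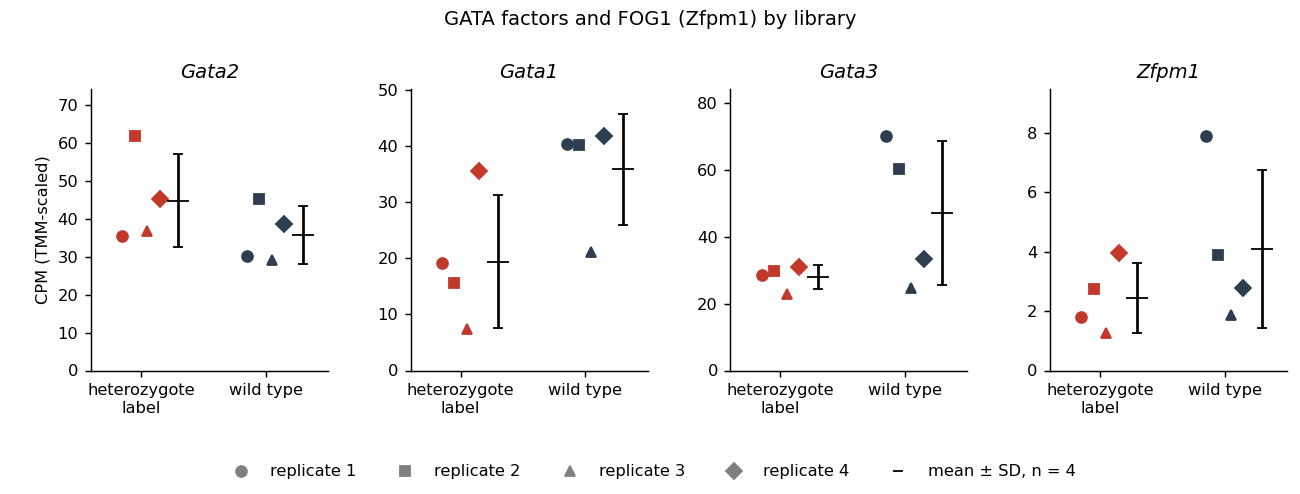
CPM (vertical axes, each from 0) of the 4 genes in each library, heterozygote label at left and wild type at right, with the marker giving the replicate number and the bar the mean ± SD of 4 libraries. All heterozygote-labelled libraries lie above the wild-type median of Gata2, Gata1 has 3 heterozygote-labelled libraries below all wild-type ones, and Gata3 and Zfpm1 are spread widely in wild type.

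Compared per length, as CPM per kilobase of exon (FPKM), the order of the mean levels of the GATA factors differed between the label groups. The length is that of all annotated exons of a gene, and which transcripts the cells expressed was not measured. No GC trend was removed from these levels. Under the heterozygote label Gata2 averaged 8.30 ± 2.26, Gata1 7.97 ± 4.85 and Gata3 7.03 ± 0.908 FPKM (SD, n = 4), and these 3 did not differ beyond their spread. In wild type Gata1 averaged 14.7 ± 4.05, Gata3 11.8 ± 5.42 and Gata2 6.62 ± 1.42 FPKM (SD, n = 4), with Gata1 and Gata3 within each other's spread. Gata2 was the lowest of the GATA factors in all 4 wild-type libraries, and the highest in heterozygote-labelled replicates 2 and 3. In heterozygote-labelled replicate 1 it was the lowest, as in wild type, and in heterozygote-labelled replicate 4 it lay between Gata1 and Gata3. Zfpm1 was below the GATA factors in all 8 libraries, at 0.696 ± 0.336 FPKM under the heterozygote label and 1.17 ± 0.760 FPKM in wild type. Among genes tested these heterozygote-label levels ranked at the 65.2, 64.5, 62.2 and 18.2 percentiles for Gata2, Gata1, Gata3 and Zfpm1. The wild-type levels ranked at the 60.4, 74.0, 70.7 and 26.4 percentiles in the same order.

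Gata2 supplied a larger share of the summed GATA factor level in every heterozygote-labelled library. Its share of Gata1, Gata2 and Gata3 FPKM was 30.4%, 45.3%, 43.6% and 27.2% in heterozygote-labelled replicates 1 to 4, against 14.0%, 20.9%, 26.6% and 21.8% in wild-type replicates 1 to 4. The groups did not overlap, but heterozygote-labelled replicate 4 and wild-type replicate 3 were close. Of single genes tested 3.47% did not overlap in CPM, and no such background was computed for shares of a sum. The Gata2 share was computed after the single values were known and carries no test. The sum itself was 21.6, 25.3, 15.6 and 30.7 FPKM under the heterozygote label and 39.8, 40.1, 20.3 and 32.7 FPKM in wild type, which overlapped.

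Ratios within a library do not depend on how libraries are scaled, and the 3 ratios to Gata2 had the largest differences of the 6 possible. The ratio of Gata3 to Gata2 per length was 1.09, 0.653, 0.841 and 0.928 in heterozygote-labelled replicates 1 to 4, against 3.16, 1.81, 1.15 and 1.17 in wild-type replicates 1 to 4. Its groups did not overlap. Of single genes tested 3.47% did not overlap in CPM, and no such share was computed for ratios. The log2 difference was -0.95 (exact two-sided permutation p = 0.0286, adjusted p = 0.171 over 6 pairs). The ratio of Gata1 to Gata2 was 1.20, 0.557, 0.452 and 1.75 under the heterozygote label, against 2.97, 1.97, 1.61 and 2.41 in wild type. Here heterozygote-labelled replicate 4 lay above wild-type replicate 3 and the other libraries did not overlap. The log2 difference was -1.36 (exact permutation p = 0.0571, adjusted p = 0.171). The ratio of Zfpm1 to Gata2 was 0.0794, 0.0693, 0.0538 and 0.135 under the heterozygote label, against 0.406, 0.133, 0.100 and 0.112 in wild type, with overlapping groups. The log2 difference was -0.98 (exact permutation p = 0.114, adjusted p = 0.229). The ratios without Gata2 differed by -0.41 for Gata1 to Gata3, 0.38 for Zfpm1 to Gata1 and -0.03 for Zfpm1 to Gata3 on the log2 scale (exact permutation p = 0.400, 0.371 and 0.914). None of the 6 passed after adjustment. A pair alone at the lowest attainable p reaches an adjusted p of 0.171, and several pairs would have to reach that lowest p together for any to pass. That none passed therefore says little about the ratios. The lower ratio of Zfpm1 to Gata3 turned to a higher one with the GC and length trend removed (0.25).

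**Figure D2:**
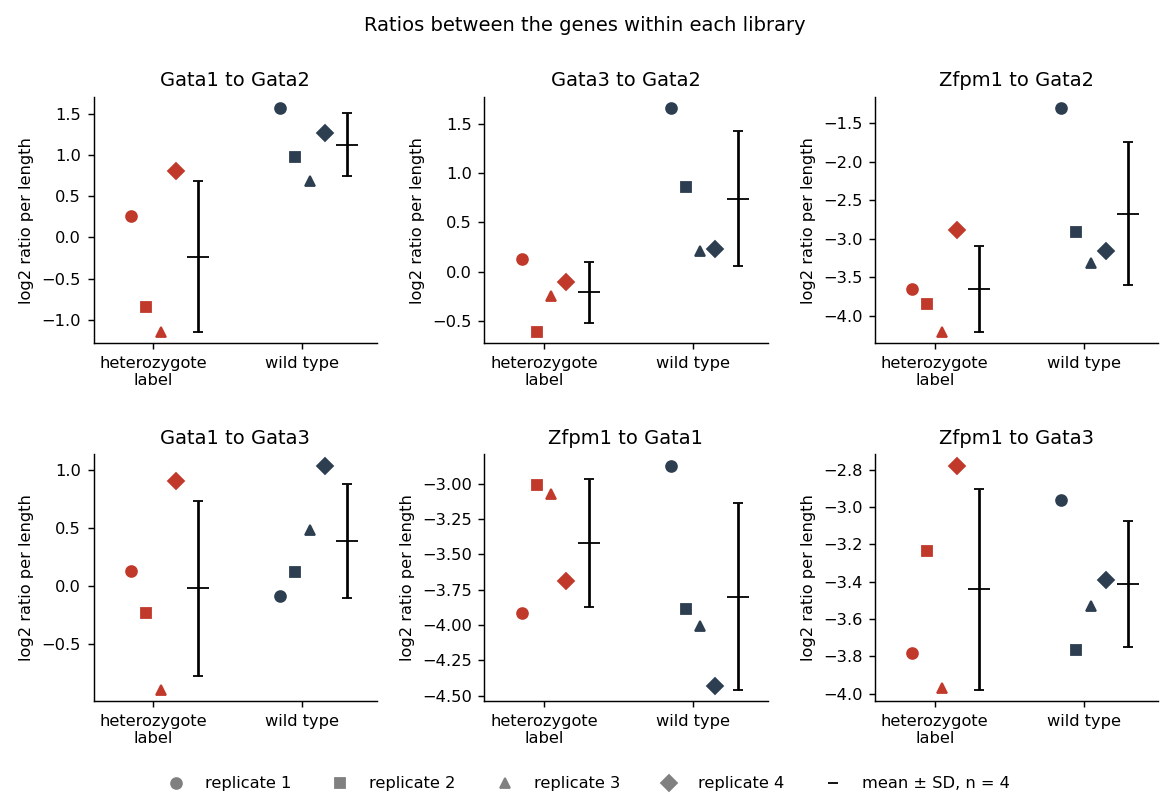
Log2 ratio per length of each pair of genes (vertical axes) in each library, heterozygote label at left and wild type at right, marker by replicate number, bars mean ± SD of 4 libraries. The groups do not overlap for Gata3 to Gata2 and overlap by 1 library for Gata1 to Gata2.

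Across the 8 libraries Gata3 and Zfpm1 varied together by both measures below, and no relation with Gata2 passed. Log2 CPM of Gata3 and Zfpm1 had a Pearson r of 0.876 (exact permutation p = 0.00089, adjusted p = 0.0054 over 6 pairs) and a Spearman rho of 0.905 (exact permutation p = 0.0046, adjusted p = 0.0274). Without wild-type replicates 1 and 2, the libraries farthest from the Gata3 median, r was 0.840, and over deviations from genotype means it was 0.850. With the GC and length trend removed r was 0.656 (exact permutation, adjusted p = 0.199), so the relation passed only with that trend left in. Gata1 and Zfpm1 had r = 0.783 (exact permutation p = 0.0208, adjusted p = 0.0624) and rho = 0.762 (exact permutation p = 0.0368, adjusted p = 0.0735). Gata1 and Gata3 had r = 0.702 (exact permutation p = 0.0544, adjusted p = 0.109) and rho = 0.833 (exact permutation p = 0.0154, adjusted p = 0.0461). Without heterozygote-labelled replicates 2 and 3, the farthest from the Gata1 median, these r were 0.769 and 0.683, and over deviations from genotype means 0.729 and 0.532. With the GC and length trend removed they were 0.666 and 0.622, so that these 3 pairs were then nearly alike. Gata2 had r of -0.07 with Gata1, -0.06 with Gata3 and 0.03 with Zfpm1, with rho of -0.07, 0.24 and 0.19 (exact permutation p of r 0.852, 0.884 and 0.948, all adjusted to 0.948, and of rho 0.882, 0.582 and 0.665). Without the 2 farthest libraries these r were 0.44, -0.18 and -0.15, and with the GC and length trend removed -0.39, -0.56 and -0.20, none of which passed. The points share their libraries, so depth and GC trend enter each pair.

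**Figure D3:**
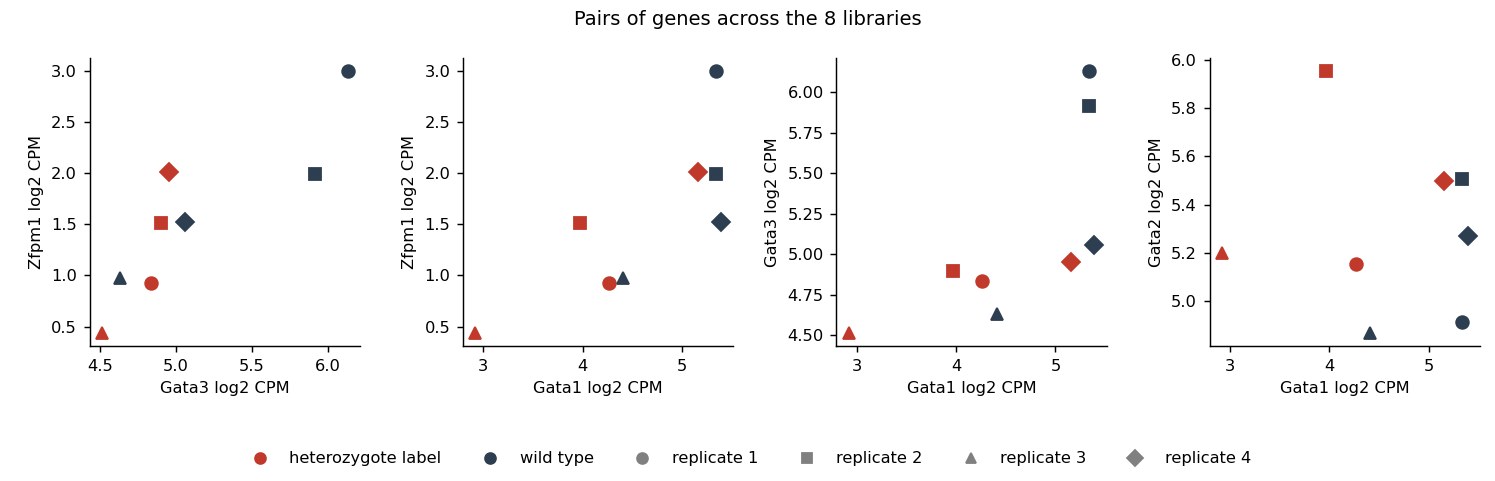
Log2 CPM of 4 pairs of genes, 1 point per library, red for the heterozygote label and dark blue for wild type, marker by replicate number. Gata3 and Zfpm1 lie along a rising line (r = 0.876), and Gata1 and Gata2 do not (r = -0.07).

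Outside the 4 genes, those whose deviations from genotype means followed a member most closely were taken from the 8732 genes whose mean reached 5 CPM, as a description over 8 libraries. For Gata1 they were Rgs19 (r = 0.982), a regulator of G-protein signalling, Lipo3 (0.977) and Trappc5 (0.972), a subunit of a vesicle tethering complex. For Gata2 they were Pemt (0.947) and Pcyt1a (0.933), enzymes of separate routes to phosphatidylcholine, and Prr14l (0.932). Over log2 CPM without removing genotype means these 3 had r of -0.08, 0.07 and 0.32 with Gata2, and their log2 fold changes were -1.00, -0.54 and -0.52. For Gata3 they were the AAA ATPase gene Vcp (0.984), Tcam1 (0.983) and Get4 (0.983), which acts in membrane insertion of tail-anchored proteins. For Zfpm1 they were the Ras exchange factor Sos1 (0.963), Lactb (0.963) and the mitotic activator Cdc20 (0.961). With the GC and length trend removed, these values lay between 0.720, for Prr14l, and 0.981, for Tcam1. With so many genes searched over 8 libraries, high values were there to be found, and none is tested.

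The other GATA-type genes were at 0 or showed no common direction. Gata4, Gata5, Gata6, the FOG2 gene Zfpm2 and Zglp1 had 0 fragments in all 8 libraries, which allows up to 0.150 to 0.184 CPM under the heterozygote label and 0.124 to 0.146 CPM in wild type. Of the 4 others tested, Gatad1 averaged 631 ± 94.1 CPM under the heterozygote label and 481 ± 153 CPM in wild type (SD, n = 4 each). Its log2 difference was 0.39 (SE 0.21), or 0.62 without wild-type replicate 3. The other 3 were the NuRD subunits Gatad2b at 0.17 (SE 0.18) and Gatad2a at -0.21 (SE 0.28) on the log2 scale, which single libraries left out moved to 0.11 to 0.25 and -0.42 to -0.05, and the repressor Trps1 at -0.22 (SE 0.57), whose sign turned when either wild-type replicate 2 or replicate 4 of the heterozygote label was left out.

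The corepressors that FOG1 recruits showed no common direction. Of 16 NuRD and CtBP genes, all tested, 7 were higher and 9 lower under the heterozygote label and 0 were called. Their median was -0.02 on the log2 scale, beside -0.02 over all genes, of which 52.0% were negative. The split was 8 higher and 8 lower with RLE size factors, 5 and 11 with library size alone, and 9 and 7 with the GC and length trend removed. The deacetylase Hdac1 averaged 135 ± 18.3 CPM under the heterozygote label and 180 ± 40.4 CPM in wild type (SD, n = 4 each). The fitted log2 difference was -0.42 (SE 0.18, edgeR unadjusted p = 0.0444, adjusted p = 0.850). Its wild-type replicate 3, at 121 CPM, lay inside the heterozygote-labelled range of 112 to 156 CPM. Mta2 differed by -0.52 (SE 0.34), the histone chaperone Rbbp7 by 0.19 (SE 0.11) and Ctbp2 by 0.41 (SE 0.28). Leaving out wild-type replicate 1 or 2 gave -0.29 or -0.34 for Mta2, and leaving out replicate 2 of the heterozygote label gave 0.22 for Ctbp2. With the GC and length trend removed Mta2 was at -0.33 and Rbbp7 at 0.12. The catalytic helicase Chd4 measured 28.1 ± 9.89 CPM under the heterozygote label and 36.7 ± 13.9 CPM in wild type.

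Proteins that form complexes with GATA factors on DNA were also split. Of 18 partner genes, all tested, 7 were higher and 11 lower, the median was -0.06 and 0 were called. RLE size factors gave 9 higher and 9 lower. Lmo2, the LIM-only bridge of the complex, was at 628 ± 15.2 CPM under the heterozygote label and 628 ± 39.5 CPM in wild type, and its partner Tal1 at 52.2 ± 4.24 and 47.6 ± 3.99 CPM in the same order (SD, n = 4 each). The repressor Gfi1b measured 108, 59.8, 59.3 and 67.0 CPM in heterozygote-labelled replicates 1 to 4, against 152, 131, 59.8 and 118 CPM in wild-type replicates 1 to 4. Wild-type replicate 3 again sat with the heterozygote-labelled libraries. Its log2 difference was -0.65 (SE 0.29), and those of Lyl1 (-0.68, SE 0.31), Ssbp4 (-1.10, SE 0.53) and the erythroid factor Klf1 (-1.36, SE 0.65) were of the same sign. With the GC and length trend removed Lyl1 was at -0.36 and Ssbp4 at -0.64. In Lyl1 and Ssbp4 wild-type replicate 3 was the lowest of all 8 libraries, at 17.6 and 2.39 CPM.

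Genes described as activated by GATA1 with FOG1 in erythroid cells and megakaryocytes were mostly lower under the heterozygote label, none past the threshold. Of 22 genes, 18 were tested, with 3 above and 15 below wild type and a median of -0.38 on the log2 scale, against -0.02 over all genes. Between 15 and 16 of the 18 were lower under each of the 18 alternative treatments, the median moving to -0.56 without wild-type replicate 3. In 4 of the 18 the unadjusted p was under 0.05, beside 5.66% of all genes tested. Itga2b, which encodes the integrin chain CD41, measured 24.4, 37.7, 39.6 and 26.2 CPM in heterozygote-labelled replicates 1 to 4, against 53.0, 65.0, 35.1 and 53.8 CPM in wild-type replicates 1 to 4. Wild-type replicate 3 lay inside the heterozygote-labelled range, and the other 3 wild-type libraries lay above it. The log2 difference was -0.69 (SE 0.24, edgeR unadjusted p = 0.0169, adjusted p = 0.850), and -0.44 with the GC and length trend removed. The mitochondrial iron importer Slc25a37 went the other way, at 14.0 ± 7.04 CPM under the heterozygote label and 6.87 ± 2.80 CPM in wild type, a log2 difference of 1.03 (SE 0.46). The summed level of the list was 1423 to 1566 CPM under the heterozygote label and 1665 to 2044 CPM in wild type, without overlap, although the groups overlapped for every one of the 18 genes (3.47% of all genes tested did not overlap). Pf4 and Nfe2 carried most of the sum, with means of 560 and 377 CPM under the heterozygote label and 653 and 489 CPM in wild type. Megakaryocyte markers, which share genes with this list, summed to 505 to 813 CPM under the heterozygote label and 674 to 957 CPM in wild type, with 7 of 8 tested lower and Mpig6b at 0. Erythroid markers summed to 35.8 to 75.9 and 45.3 to 105 CPM in the same order, with 5 of 6 tested lower and Slc4a1 at 0. Their part in the Gata1 and Zfpm1 levels was not tested.

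Genes described as repressed by GATA1 were not called in either direction. Of 7, all tested, 3 were higher and 4 lower, with a median of -0.15, and 0 were called. The split was 1 and 6 with library size alone, by limma-voom, with the GC and length trend removed and without replicate 1 of the heterozygote label, and the median turned to 0.02 when wild-type replicate 2 was left out. Myc averaged 120 ± 19.2 CPM under the heterozygote label and 170 ± 50.8 CPM in wild type (SD, n = 4 each). Its log2 difference was -0.50 (SE 0.22). The homeobox gene Hhex measured 43.0 to 60.8 CPM under the heterozygote label and 62.3 to 70.3 CPM in wild type. It was the only 1 of the 7 without overlap, beside 3.47% of all genes tested. The Hhex log2 difference was -0.26 (SE 0.15, edgeR unadjusted p = 0.107), or -0.17 without replicate 3 of the heterozygote label. The receptor gene Kit differed by -0.15 (SE 0.18), a sign that turned without wild-type replicate 2.

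**Figure D4:**
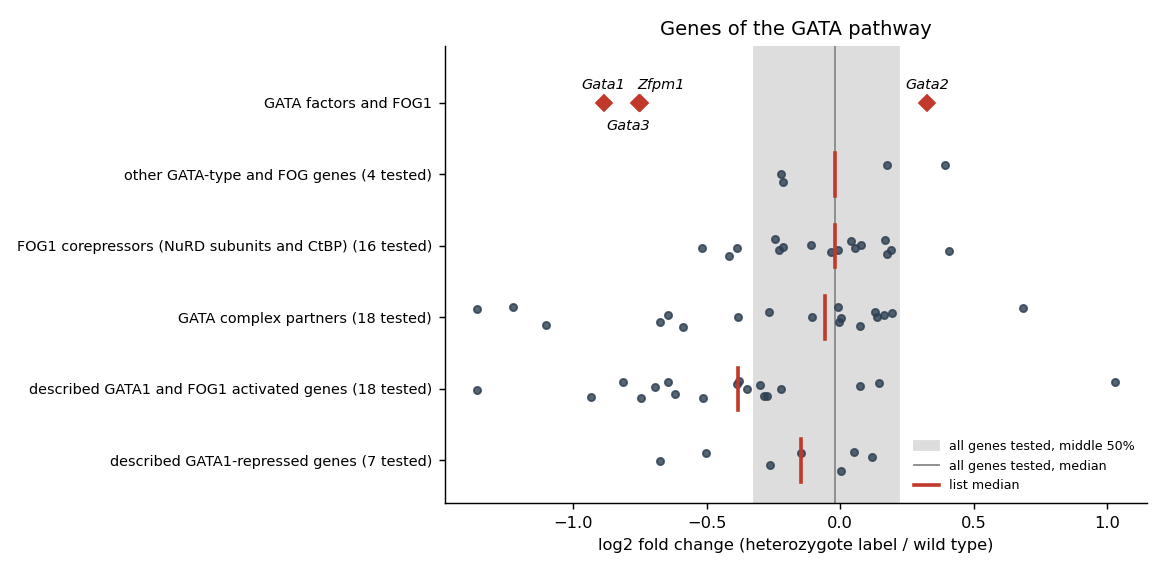
Log2 fold change, heterozygote label over wild type, of the 4 genes (top row, diamonds) and of the tested genes of 5 lists (points, with the list median in red), beside the middle 50% of all genes tested in grey. Gata1, Gata3 and Zfpm1 lie left of the grey band and Gata2 right of it, and the described GATA1 and FOG1 activated genes have a median of -0.38.

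Among the marker lists in this paragraph, those of T cells and innate lymphoid cells, mast cells and basophils, eosinophils and stroma had the lowest sums. Of 12 T cell and innate lymphoid markers, Cd3e, Cd3g, Cd8a, Tcf7, Bcl11b, Il7r and Cd5 had 0 fragments in all 8 libraries, and the list summed to 26.9 to 35.8 CPM under the heterozygote label and 27.6 to 42.4 CPM in wild type, mostly from Lck and Rora. Of 10 mast cell and basophil markers, Cma1, Tpsb2 and Cd200r3 were at 0, and the list summed to 17.7 to 26.6 and 19.9 to 42.0 CPM in the same order. Most of that was the carboxypeptidase Cpa3, at 17.3 CPM under the heterozygote label and 28.5 CPM in wild type. Eosinophil markers summed to 0.927 to 2.87 and 3.02 to 9.09 CPM, with Il5ra at 0. B cell markers summed to 104 to 126 and 104 to 135 CPM with Pax5 and Igll1 among the genes at 0, and granulocyte and monocyte markers to 500.0 to 627 and 537 to 658 CPM. Cd79b carried nearly all of the B cell sum, at 113 CPM under the heterozygote label and 119 CPM in wild type, and Lyz2 and Prtn3 most of the granulocyte and monocyte sum. Endothelial markers, among them Vwf and Tek that stem cells share, summed to 144 to 209 and 223 to 257 CPM, and stromal markers to 0.857 to 15.2 and 1.34 to 22.8 CPM. Of the sums in this paragraph, those of the eosinophil and endothelial markers did not overlap. Of single genes tested 3.47% did not overlap, and no such share was computed for sums. The eosinophil sums were low, with 2 of the 6 genes tested, and of the 6 endothelial genes tested only Vwf did not overlap. Their part in the levels of Gata2 and Gata3 was not tested.

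Neighbours were counted on their own strand, and how completely the libraries kept the strand was not measured. Gm13256 (chr2:9877256-9878869, plus strand) runs antisense to Gata3 with 155 shared exonic bases. It collected 8, 4, 0 and 4 fragments in heterozygote-labelled replicates 1 to 4, against 41, 36, 6 and 8 in wild-type replicates 1 to 4. The libraries with high Gata3 had the most, and whether Gata3 fragments entered this count was not tested. Gm38708 (chr6:88188397-88190681, minus strand) lies 3209 bases upstream of Gata2 and collected 0 fragments in all 4 heterozygote-labelled libraries, against 13, 15, 0 and 12 in wild-type replicates 1 to 4. Both were below the filter and not tested. Gm45353, a non-coding gene 1919 bases downstream of Zfpm1, had 6, 44, 36 and 9 fragments under the heterozygote label and 25, 14, 30 and 31 in wild type, a log2 difference of 0.26 (SE 0.80). 9230102O04Rik shares 77 exonic bases with Gata3 on its strand, where fragments would be left uncounted, and had 0 fragments.

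**Figure D5:**
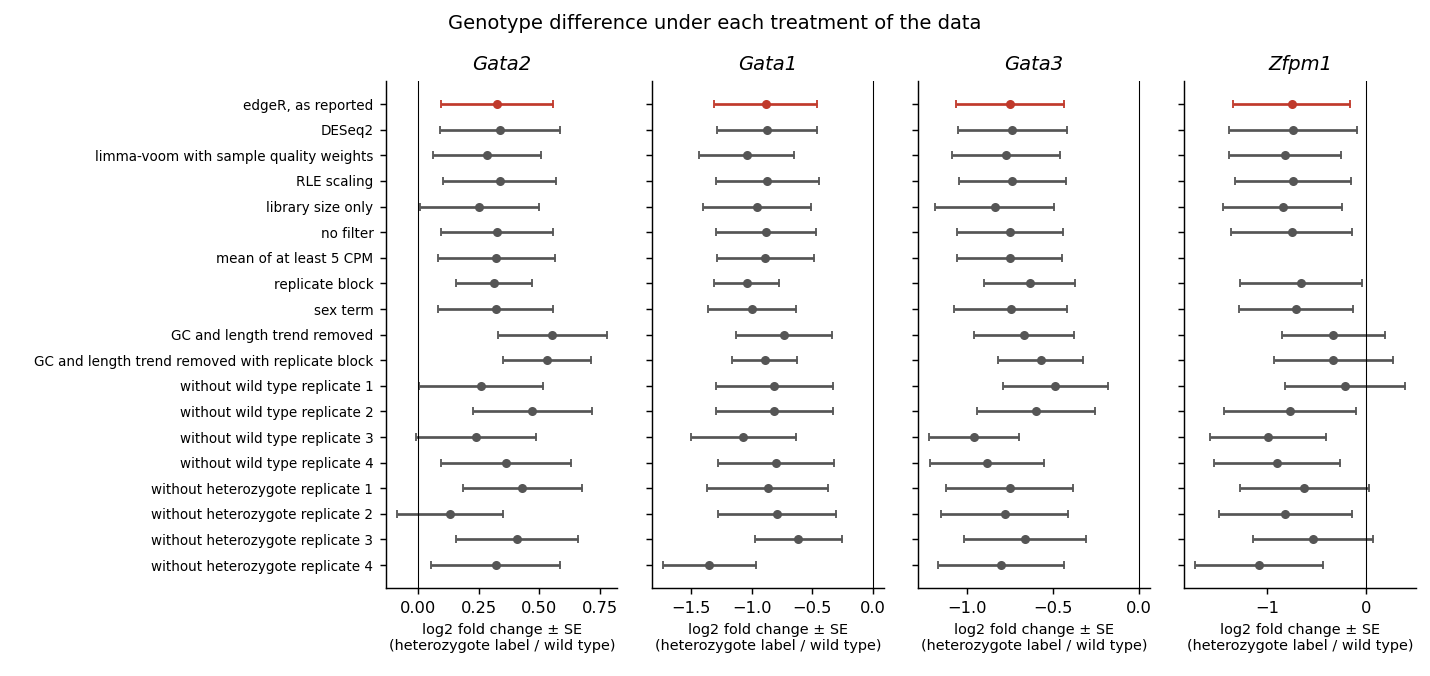
Log2 fold change ± SE (horizontal axes), heterozygote label over wild type, of each gene under edgeR as reported (red) and 18 other treatments of the data (grey). Zfpm1 has no value at a mean of at least 5 CPM. Gata2 lies above 0 in all 18 others and Gata1, Gata3 and Zfpm1 below 0 wherever fitted, and none of these values passed.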

How the data were processed

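Total RNA was depleted of ribosomal RNA, made into directional libraries with 11 PCR cycles and sequenced as paired reads of 75 bases, per the labels' protocols. The submitters' processing notes name Trim Galore, cutadapt, STAR 2.5.1b, GRCm38 and featureCounts 1.5.1, while the file headers name featureCounts 1.6.2. The deposited values are raw fragment counts per gene, made by the authors in reverse-stranded mode over exons of GENCODE M17 with both ends mapped, per the file headers. No option to count multi-mapped or ambiguous fragments was set.

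Symbols and GC content came from GENCODE M21 of the same build, matching 53620 identifiers. CPM and FPKM were computed from the counts with TMM factors, and log2 CPM has a prior count of 2. Genotypes were compared with edgeR 4.0.16 in R 4.3.3 (robust quasi-likelihood, filterByExpr, 13992 genes, Benjamini-Hochberg threshold 0.05). DESeq2 1.42.0 on the same genes and limma 3.58.1 were alternatives, beside other scalings and filters, the replicate number as a block, a sex term, a loess removal of GC and length trends, and each library left out. Ratios carry a prior of 0.5 counts. Exact tests ran over 70 assignments or all pairings of 8 libraries. On data simulated for this comparison with 13992 genes, 23.3% of genes changed 2-fold and 54% of those changed 4-fold were called by edgeR. The 3 simulations made 14 false calls. They drew each gene independently, without the GC trends or the distant library of these data.

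The genes, lists and tests were chosen with earlier results of these data known. Named were the 4 genes, at most 4 genes of each list by smallest unadjusted p (others of a list, such as Chd4, Lmo2 and Tal1, are named as list members), neighbours within 5000 bases, and 3 genes most like each. Ahsp was not analysed here, and some list genes that this rule names are not reported here. Every 2 libraries of a genotype differed by more than sampling noise, and limits from a count of 0 rest on 3 counts and cover counting error only. Nothing beyond the mouse count says that libraries of a genotype came from separate litters.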

Additional observations from a re-analysis of the deposited data

Results flagged for a closer look

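Gata1 in wild type was picked out because 1 library lay far from the others. Wild-type replicate 3 stood at a log2 CPM of 4.41 against 5.34 to 5.39 in the other 3 wild-type libraries, and its gap took 0.944 of the range of the group, above the 95% critical value of 0.829 for 4 samples. It was the only one of 58 groups examined, where chance alone picks out about 1 group in 20. Without that library the Gata1 log2 fold change was -1.07 (SE 0.43, edgeR adjusted p = 0.364).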

How the results depend on the processing

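The direction of the genotype difference held for Gata1 (log2 fold change -1.35 to -0.62), Gata2 (0.13 to 0.55) and Gata3 (-0.96 to -0.49) in all 18 alternatives and for Zfpm1 (-1.08 to -0.21) in the 17 that could be fitted, with Zfpm1 below a mean of 5 CPM. None of these passed. DESeq2 called 29 genes in place of 0, none of the 4 among them, and the other alternatives called 0. The difference in the ratio of Zfpm1 to Gata3 was 0.25 with the GC and length trend removed, and -0.25 to 0.15 with single libraries left out. The other 5 ratios kept their sign, and none passed. The correlation of Gata3 with Zfpm1 was 0.656 and missed the threshold with the GC and length trend removed, and that of Gata1 with Zfpm1 was 0.804 and passed when library size alone scaled the counts (exact permutation adjusted p = 0.0485). Correlations with Gata2 changed sign or size, and none passed. With Gata1 the value was 0.0566 with library size only and 0.329 over deviations from genotype means, with Gata3 it was 0.123 and 0.290, and with Zfpm1 it was -0.195 with the GC and length trend removed, where Gata1 and Gata3 gave -0.391 and -0.556. The cause was not tested. With single libraries left out Trps1 ranged from -0.88 to 0.0721 and Kit from -0.23 to 0.0649.

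Deviations of same-numbered libraries correlated weakly, at 0.0437, 0.00566, 0.0961 and 0.0215 for numbers 1 to 4. Heterozygote-labelled replicates 2 and 4 correlated best with other numbers, while the sex read from counts matched by number. The labels give no pairing, and these values do not settle whether the numbers mark pairs. With the replicate number as a block the log2 fold changes were -1.05 for Gata1 (edgeR unadjusted p = 0.0074, adjusted p = 0.723), 0.31 for Gata2, -0.64 for Gata3 and -0.66 for Zfpm1, 0 genes were called, and the block changed no call. In the paired sign-flip test of the ratios, 0.125 is the smallest p. Depth limits Zfpm1 most, whose lowest library had 23 fragments.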
